A study of Mus musculus with 4 samples.

Results

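Cdx2, Eomes, Hand1, Ascl2, Tfap2c, Ets2 and Gcm1 are transcription factors of the trophoblast, the blastocyst lineage that forms the placenta. They were examined in mouse extraembryonic endoderm (XEN) cells and embryonic stem (ES) cells, cultures that stand for the other two blastocyst lineages. The members were all probe sets annotated to exactly 1 of these 7 symbols. This gave 8 probe sets for 6 genes, of 8251 genes with such a probe set on the array, and no probe set was annotated to Gcm1 alone, so that its level was not analysed here. The XEN group was 3 cultures of 2 lines, each measured on 1 Affymetrix MG_U74Av2 array. IM8A1-I and IM8A1-II were the IM8A1 line of the PO strain at passage 27. IM8A1-I grew on gelatin, its medium being given as 70% EMFI-CM. IM8A1-II spent 4 days in RPMI 1640 containing 20% FBS, on tissue culture plastic. XEN1-3, an ICR line at passage 18, had the same surface and medium as IM8A1-I. ES cells were represented by 1 culture, undifferentiated R1 cells on gelatin with LIF, a cytokine that holds mouse ES cells undifferentiated. No replicate of a line in the same condition was present, so the p-values below rest in part on the spread between the XEN cultures. The test (limma) moderates that spread toward the spread of other probe sets of similar brightness. The ES culture is taken to have the same spread.

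In the mouse blastocyst the outer cells become trophectoderm and the inner cell mass divides into epiblast and primitive endoderm. Cdx2, a caudal-type homeobox protein, and Eomes, a T-box protein, establish and maintain trophoblast stem cells. Tfap2c (AP-2 gamma) and Ets2, a transcription factor of the ETS family that responds to MAP kinase signalling, act in the same stem cells and their derivatives. Ascl2 (Mash2), an imprinted basic helix-loop-helix gene, is needed for the spongiotrophoblast, Hand1 for trophoblast giant cells and Gcm1 for the labyrinth. None of these genes is exclusive to trophoblast: Eomes also acts in the primitive streak, Hand1 in mesoderm and heart, and Tfap2c in primordial germ cells and pluripotent cells.

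The RefSeq promoter table (GRCm38.p6) held 5 of the 7 genes, and the 250 bases before the transcript start were read on the gene's strand. Hand1 and Tfap2c had no entry. The promoters of 3 members are shown because their genes gave different patterns in these cultures: Cdx2 was dim on every array, Eomes was above the background limit only in ES, and Ets2 was above it on every array. Capitals mark matches, on either strand, to the octamer ATGCAAAT that POU factors bind, the CCAAT box or the GC box GGGCGG. The motifs, with the TATA box TATAAA, were chosen with the sequences in view, and none of the matches overlapped.
Cdx2, chr5:147307250-147307499, minus strand: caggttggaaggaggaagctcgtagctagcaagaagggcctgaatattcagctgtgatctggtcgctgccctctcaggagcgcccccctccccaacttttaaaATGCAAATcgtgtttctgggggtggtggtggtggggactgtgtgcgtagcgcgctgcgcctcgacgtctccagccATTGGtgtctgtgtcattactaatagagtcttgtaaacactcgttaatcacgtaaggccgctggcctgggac
Eomes, chr9:118477939-118478188, plus strand: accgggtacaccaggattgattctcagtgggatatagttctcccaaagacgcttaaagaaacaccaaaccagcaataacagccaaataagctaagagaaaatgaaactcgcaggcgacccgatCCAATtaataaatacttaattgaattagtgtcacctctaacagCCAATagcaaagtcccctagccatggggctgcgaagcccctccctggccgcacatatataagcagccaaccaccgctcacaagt
Ets2, chr16:95702157-95702406, plus strand: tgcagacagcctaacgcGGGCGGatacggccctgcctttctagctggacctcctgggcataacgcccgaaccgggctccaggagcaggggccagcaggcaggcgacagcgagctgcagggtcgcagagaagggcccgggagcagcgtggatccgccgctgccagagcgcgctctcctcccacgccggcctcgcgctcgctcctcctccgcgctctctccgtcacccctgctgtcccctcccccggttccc

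Cdx2 held 1 octamer and 1 CCAAT box, Eomes 2 CCAAT boxes, and Ets2 1 GC box. The octamer lay 147 bases before the Cdx2 start. Among 32851 promoters in the table, 1.60% held an octamer, 33.8% a CCAAT box, 32.7% a GC box and 12.4% the exact string TATAAA. No member promoter held TATAAA itself. Other forms of the TATA box were not searched, and the Eomes promoter holds TATATAAG near its end. The Ascl2 promoter held 3 CCAAT boxes and 1 GC box, and that of Gcm1 held 1 CCAAT box. The promoters also differed in base composition. G and C made up 71.6% of the bases of Ets2, 67.6% of Ascl2, 55.2% of Cdx2, 46.4% of Eomes and 45.6% of Gcm1. CpG dinucleotides numbered 25, 19, 13, 8 and 1 in the same order of genes. These matches describe the letters only.

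Signal is given in arbitrary units after the arrays were brought to a common trimmed mean. The background limit used throughout was 27.2 units, the 40th percentile of all values. It separates dim from brighter probe sets and is not a detection call. The share of probe sets at or above it was 59.7% to 60.6% on the 4 arrays. The cultures matched their labels. All 8 XEN markers (among them Gata4, Gata6 and Sox17) were above the limit in each XEN array and 3 of 8 in ES. Of 8 ES markers (among them Pou5f1, Nanog and Sox2), 1, Fgf4, was above it in each XEN array and all 8 in ES. The ES array came from a different chip lot than the 3 XEN arrays, so that in any comparison of XEN with ES the lot and the cell type cannot be told apart. The cell line differed too, and LIF was named for the ES culture alone. These cannot be told apart from the cell type either. The run record of XEN1-3 carries a message that no fluid was detected at the fluidics station.

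Cdx2 was not seen above background in either cell type. Its signal was 10.9, 11.1 and 11.5 units in the XEN cultures IM8A1-I, IM8A1-II and XEN1-3, against 12.3 in ES. The 4 values lie within 1.40 units of each other, all under the limit, and the probe set was therefore not tested. A low signal on an array of this kind does not show that the transcript was absent.

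Eomes was represented by 2 probe sets, both dim. The brighter, 93880_at, read 2.7, 2.8 and 2.3 units in these XEN cultures, against 32.6 in ES; XEN values below keep this order. The other, 103532_at, read 0.6, 0.7 and 0.5 units in the XEN cultures, against 16.5 in ES. In both the ES array stood above all XEN arrays, but only the ES value of 93880_at passed the limit, and narrowly. Against the limit, Eomes was at least 1.20-fold lower in XEN. On the log2 scale with an offset of 10.5 units, on which all differences below are given, the XEN minus ES difference was -1.72 ± 0.44 (SE; 3 XEN arrays and 1 ES array; 95% interval -2.80 to -0.64), with a limma adjusted p of 0.0626 over 8587 tested probe sets. The call therefore missed the threshold of 0.05. The XEN arrays differed by no more than 0.06 on this scale, so the SE came mainly from other probe sets. The Eomes call passed under 4 of the other settings tried. With no filter on dim probe sets (adjusted p = 0.0140) and without a variance trend (0.0221) the difference stayed at -1.72. With a larger offset it was -0.66 (adjusted p = 0.0409). With dim values set to the limit, which makes the 3 XEN arrays equal, it was -0.26 (adjusted p = 0.0191). Over all 11 alternatives that gave Eomes a value, the adjusted p ran from 0.0140 to 0.169.

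Tfap2c was the only member whose difference between XEN and the ES culture passed the threshold in the main test. It read 13.1, 14.8 and 10.8 units in the XEN cultures, against 766.8 in ES. The XEN cultures lay within 4.00 units of each other and all under the limit. Tfap2c was thus at least 28.2-fold lower in XEN, with a log2 difference of -5.06 ± 0.30 (SE; limma adjusted p = 0.00182; 95% interval -5.80 to -4.31). The call held under all 12 alternatives, with differences from -5.72 to -3.71 and adjusted p from 0.000379 to 0.00908. Without XEN1-3, the culture with the fluidics message, the difference was -4.99. In cultures, fewer cells that express a gene and less RNA per cell cannot be told apart.

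Ascl2 was dim. Its signal was 26.3, 12.1 and 11.3 units in the XEN cultures, against 33.1 in ES, so that ES was highest and IM8A1-I nearest to it, just under the limit. The bound was at least 1.22-fold lower in XEN, and the log2 difference of -0.73 ± 0.46 (SE) did not pass (limma adjusted p = 0.337; 95% interval -1.86 to 0.40). With dim values set to the limit, which makes the 3 XEN arrays equal, the adjusted p was 0.0167. Over all 11 alternatives in which Ascl2 was tested it ran from 0.0167 to 0.513.

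Hand1 showed no clear difference by cell type, and its 2 probe sets differed in where ES stood. Its brighter probe set, 92766_at, read 20.8, 68.9 and 50.6 units in the XEN cultures, against 64.5 in ES. The ES value fell within the XEN range, and IM8A1-I alone was under the limit. The log2 difference was -0.49 ± 0.55 (SE; limma adjusted p = 0.593; 95% interval -1.86 to 0.87). The second probe set, 161468_f_at, was under the limit on all arrays. It read 3.1, 5.7 and 12.8 units in the XEN cultures in the same order, against 23.7 in ES. Here ES stood above all XEN arrays. The probe sets put different XEN cultures highest, IM8A1-II in the first and XEN1-3 in the second.

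Ets2 was the only member above the limit on all 4 arrays. It read 113.9, 224.7 and 98.5 units in the XEN cultures, against 104 in ES. IM8A1-II stood apart from the other 3 arrays, which lay close together and held ES among them. XEN averaged 146 ± 68.8 units (SD, n = 3). The log2 difference of 0.36 ± 0.48 (SE) did not pass (limma adjusted p = 0.654; 95% interval -0.82 to 1.55), an interval that leaves room for more than a doubling or for a fall of nearly that size. Without IM8A1-II the difference was 0.02.

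**Figure D1:**
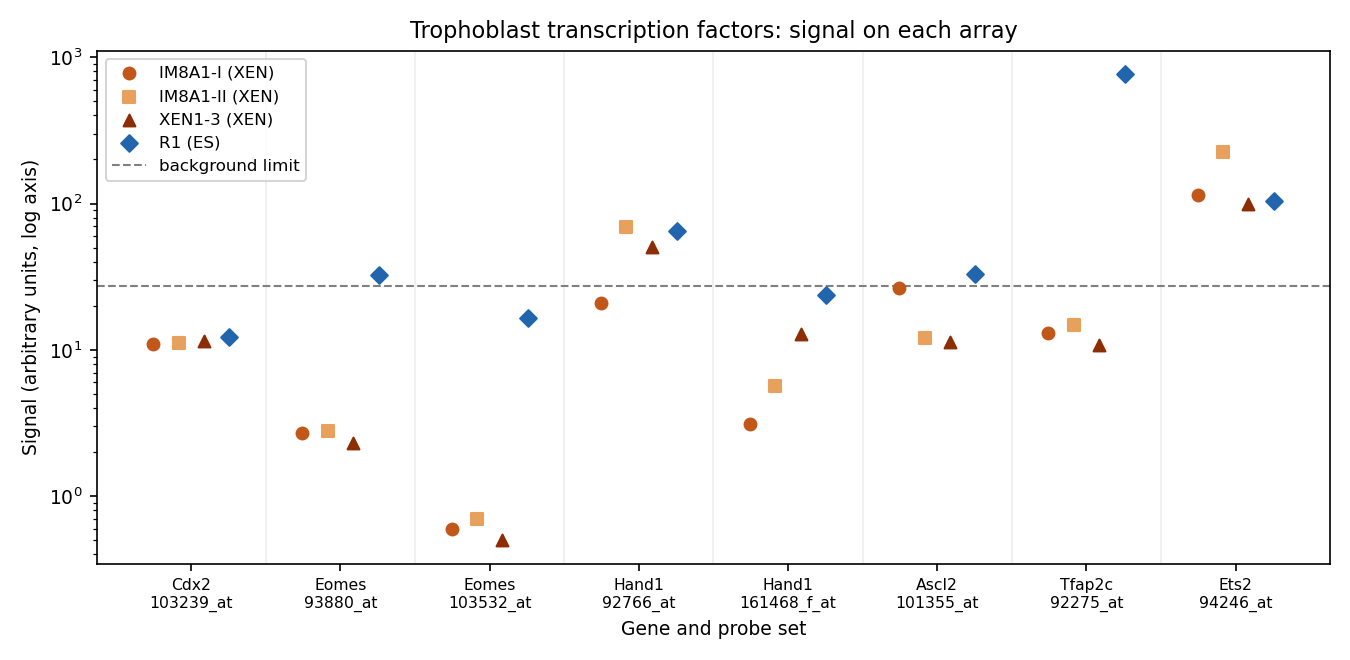
Signal of each of the 8 member probe sets on the 4 arrays (log axis, arbitrary units), with the 3 XEN cultures left of the ES culture and the background limit of 27.2 units dashed. Tfap2c stands at 766.8 units in ES and at 10.8 to 14.8 in XEN, Ets2 lies above the limit on all arrays, and Cdx2 lies under it on all.

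Of the 8 member probe sets, 5 were tested, and limma called 1 of them lower in XEN (Tfap2c) and 0 higher, while without adjustment (p under 0.05) 2 were lower and 0 higher. Over all tested probe sets 5.04% were called lower and 5.58% higher. Eomes, Ascl2 and Tfap2c entered the test through their ES value alone, and for these genes only a lower level in XEN could be found. ES stood above all 3 XEN arrays in 3 of the 5, and in 34% of all tested probe sets. No member was called higher in XEN in any of the 12 alternatives. In the lists below, likewise, a gene under the limit in all XEN arrays could only be found lower in XEN. A gene under it in ES and above it in all XEN arrays could only be found higher.

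**Figure D2:**
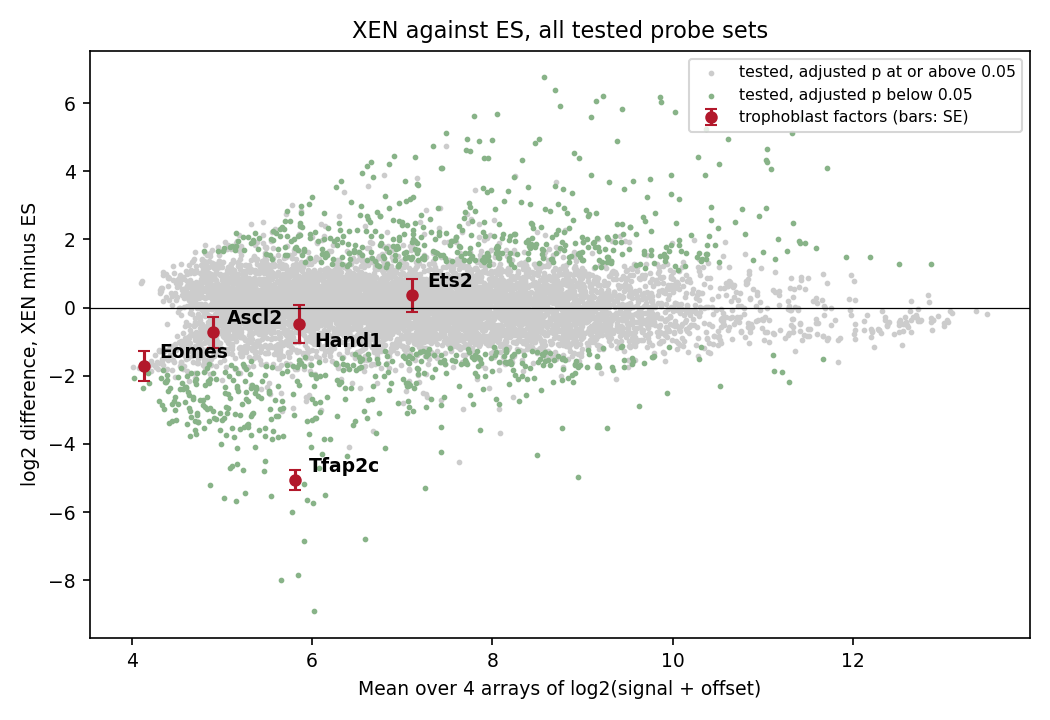
Log2 difference of XEN minus ES (vertical) against the mean log2 level over the 4 arrays (horizontal) for 8587 tested probe sets, with the 5 tested members in red and their SE as bars. Tfap2c lies at -5.06, while Ascl2, Hand1 and Ets2 lie within the grey band of probe sets that did not pass, and Eomes at -1.72 lies at the dim end.

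Within XEN, the IM8A1 line on plastic in serum medium (IM8A1-II) was set against the same line on gelatin in 70% EMFI-CM (IM8A1-I), 1 array each and with no test. Ets2, the only member above the limit in both, was 0.92 higher in IM8A1-II on the log2 scale, or 1.89-fold with the offset included. Hand1 (92766_at) was above the limit in IM8A1-II and under it in IM8A1-I, which makes it at least 2.53-fold higher in IM8A1-II. Ascl2, Eomes and Tfap2c were under the limit in both cultures, and no difference is given for them. With the offset included, Hand1 passed 2-fold and Ets2 did not, while 5.99% of all tested probe sets passed it in either direction. The members dim in both cultures give no count to set beside that share. Surface and medium both differed between these cultures and cannot be told apart.

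XEN1-3 was set against IM8A1-I in the same way, as 2 lines in the same medium. Ets2, above the limit in both, differed by -0.19 on the log2 scale. Hand1 was at least 1.86-fold higher in XEN1-3, again against an IM8A1-I value under the limit. Ascl2, Eomes and Tfap2c were under it in both cultures. With the offset included, 9.12% of all tested probe sets passed 2-fold in either direction, and the members that were dim in both cultures give no count to set beside it. Both comparisons use the IM8A1-I array, so a low Hand1 on that array enters both. XEN1-3 and IM8A1-I also differed in strain (ICR and PO) and passage (18 and 27), and XEN1-3 alone carried the fluidics message. These cannot be told apart from the line.

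Other regulators of trophoblast were read from a list of 24 genes that held none of the members. Of 20 that were tested, 2 were called higher and 2 lower in XEN, beside 5.58% and 5.04% of all tested probe sets. The median difference was 0.13, against 0.05 over all tested probe sets. Without XEN1-3 the list had 4 higher calls, and it had 1 lower call whichever XEN culture was left out. Cited1 and Cited2, transcriptional co-activators that are needed for normal placental development, were higher in XEN. Cited1 read 1031.5, 1650.6 and 1207.5 units in XEN, against 105.7 in ES, a log2 difference of 3.46 ± 0.34 (SE; limma adjusted p = 0.00676). Cited2 read 3805.4, 3864.3 and 2812.5 units in the XEN cultures, against 452.4 in ES (2.91 ± 0.29, adjusted p = 0.00702). All XEN values of both genes lay well above that of ES.

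The regulators that fell are shared with pluripotent cells. Sox2, which serves both epiblast and trophoblast stem cells, was at least 124.7-fold lower in XEN (limma adjusted p = 0.00175). The nuclear receptor gene Esrrb read 8.5, 5.2 and 6.8 units in XEN, against 48.0 in ES, at least 1.76-fold lower, with an adjusted p of 0.0490 that became 0.0600 to 0.121 when any 1 XEN culture was left out. Elf5, an ETS factor that marks trophoblast stem cells, was under the limit on all arrays, at 1.6, 3.2 and 4.6 units in XEN and 1.9 in ES. Tead4, which acts upstream of Cdx2 in the trophectoderm, stood at 226.3, 171.9 and 263.6 units in XEN, against 87.3 in ES, without passing (adjusted p = 0.0711). Gata3, which acts beside Cdx2, was near the limit, at 29.9, 23.4 and 30.6 units in XEN and 18.9 in ES. Tead4, Elf5 and Gata3 were named after their values were seen.

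Trophoblast stem cells are maintained by FGF4, made in the embryo by the epiblast, together with Nodal or activin. BMP4 signals between the extraembryonic ectoderm and its neighbours. Of 19 tested genes of this signalling, 5 were called lower and 1 higher in XEN, beside 5.04% and 5.58% of all tested probe sets. The median difference was -0.61, against 0.05 over all tested probe sets. Without IM8A1-I or IM8A1-II the lower calls numbered 3. Fgf4 was at 158.2, 137.0 and 171.9 units in XEN, against 1056.3 in ES (-2.69 ± 0.28, limma adjusted p = 0.00734). Nodal read 20.8, 13.3 and 14.7 units in XEN, against 244.8 in ES, at least 9.0-fold lower (adjusted p = 0.00733). The receptor gene Fgfr1 was at least 7.56-fold lower in XEN (limma adjusted p = 0.0182). Pcsk6, which encodes a convertase that processes Nodal, and Bmp4 were also lower, by log2 differences of -1.68 and -1.63, though with IM8A1-I left out their adjusted p was 0.0820 and 0.0782, and with IM8A1-II left out it was 0.0732 and 0.0745.

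Lifr, the receptor subunit for LIF, was the member of this list that was higher in XEN, at 1399.2, 664.9 and 671.5 units, against 119.4 in ES (2.74 ± 0.48, limma adjusted p = 0.0265). With dim values set to the limit its adjusted p was 0.101. Fgfr2, the FGF receptor of trophoblast stem cells, named after its values were seen, stood at 105.4, 110.2 and 52.3 units in XEN and 206.3 in ES, all above the limit, without passing (adjusted p = 0.146).

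A list of 39 products of differentiated trophoblast and placenta had 23 genes with a probe set of their own. Prl3d1, Prl3b1 and Prl2c2 were among those without one. Of the 23, 10 reached the limit on at least 1 array. Over the whole array 8587 probe sets did so, of 12488 that included 66 controls. The other 13 products were under the limit on all 4 arrays, with signals from 0.1 to 22.6 units. Among these 13 were all 5 measured prolactin family genes, hormones of giant cells and spongiotrophoblast, which did not exceed 15.9 units. Tpbpa, the classic spongiotrophoblast marker, read 22.6, 10.4 and 7.6 units in XEN and 19.8 in ES. The 10 tested genes had a median difference of 0.09, and at unadjusted limma p under 0.05, 2 were higher and 1 lower. After adjustment 1 was called higher in XEN and 0 lower, beside 5.58% and 5.04% of all tested probe sets. The one was Flt1, a receptor for vascular endothelial growth factor made by spongiotrophoblast and by endothelium, at 99.2, 268.9 and 96.0 units in XEN and 12.2 in ES, at least 5.03-fold higher (limma adjusted p = 0.0457). That call was lost under 6 alternatives, among them leaving out IM8A1-I (adjusted p = 0.0708), which leaves 0 higher calls in the list, while 2 were found without XEN1-3, and over all 12 its adjusted p ran from 0.0138 to 0.201.

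Krt7, named after its values were seen, read 8.4, 2.3 and 3.6 units in XEN, against 43.5 in ES, without passing. The product list had 1 lower call with the larger offset, with dim values set to the limit, without a filter and without a variance trend. Plac8, Plac1, Peg10, Psg17, Gjb5 and Sct stood above the limit on all arrays without passing. Psg17 read 98.6, 85.0 and 107.6 units in XEN and 81.4 in ES. For Gjb5 the values were 85.1, 42.9 and 100.1 units in XEN and 149.1 in ES. Sct was at 460.4, 534.2 and 551.0 units in XEN and 531.4 in ES. Plac8, read at 241.9, 629.0 and 222.5 units in XEN and 539.0 in ES, was highest in IM8A1-II, as was Plac1, at 85.3, 134.3 and 46.0 units in XEN and 43.4 in ES. Peg10, an imprinted gene needed for the placenta, read 152.1, 343.1 and 198.3 units in XEN and 380.4 in ES. Rhox6, a placental homeobox gene, was above the limit in the IM8A1 cultures alone, with 186.0 and 112.2 units in the IM8A1 cultures, 5.0 in XEN1-3 and 10.3 in ES. Plac8, Plac1, Peg10, Psg17, Gjb5, Sct and Rhox6 were named after their values were seen. The presence of the products in the brighter part of the array does not by itself mark trophoblast, since several are made in other tissues.

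**Figure D3:**
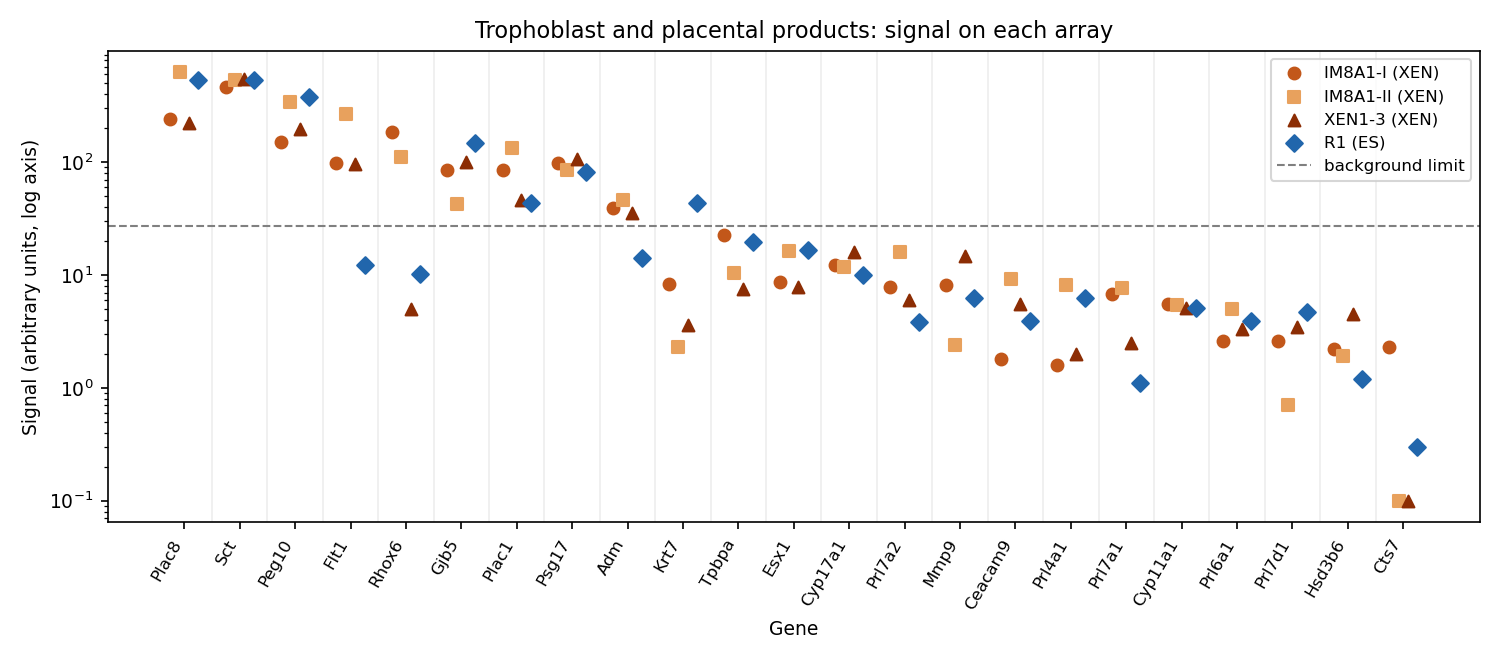
Signal of 23 trophoblast and placental product genes on the 4 arrays (log axis, arbitrary units), with the XEN cultures left of ES in each column and the background limit of 27.2 units dashed. Flt1 and Adm are above the limit in XEN alone, Krt7 in ES alone, Rhox6 in the IM8A1 cultures alone, and 13 genes are under it on every array.

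Relatives of the members in their own gene families showed no call in either direction among 18 tested genes (limma), with a median difference of 0.30. Without adjustment (limma p under 0.05) 4 were higher and 0 lower. Over all tested probe sets 5.58% were called higher and 5.04% lower, with a median of 0.05. No family had a called relative in the main test or in any of the 12 alternatives. Cdx1 and Cdx4 were under the limit on all arrays, at no more than 18.1 units. Of 2 AP-2 relatives of Tfap2c, Tfap2a read 25.8, 34.3 and 20.1 units in XEN and 17.3 in ES, a difference of 0.40, and Tfap2b was under the limit on all arrays. The T-box relatives of Eomes that were tested differed by -0.15 to 0.23. Among 11 tested ETS relatives of Ets2 the differences ran from -0.91 to 0.99. Tcf3, Tcf4 and Tcf12, which encode the E proteins that pair with Ascl2 and Hand1, were above the limit on all arrays, with differences of -0.52 to 0.93.

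Ascl2 lies in the imprinted Kcnq1 domain, whose genes are expressed in the placenta in part from 1 parental copy. Of 8 tested genes around it, 1 was called lower and 0 higher in XEN, beside 5.04% and 5.58% of all tested probe sets. The median was -0.03, against 0.05 over all tested probe sets. Cdkn1c, a cell cycle inhibitor, read 8.5, 12.9 and 11.0 units in XEN, against 232.3 in ES, at least 8.54-fold lower (limma adjusted p = 0.00614). Phlda2, a growth restraint of the placenta named after its values were seen, was uneven in XEN at 186.3, 312.6 and 53.5 units, against 319.9 in ES.

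**Figure D4:**
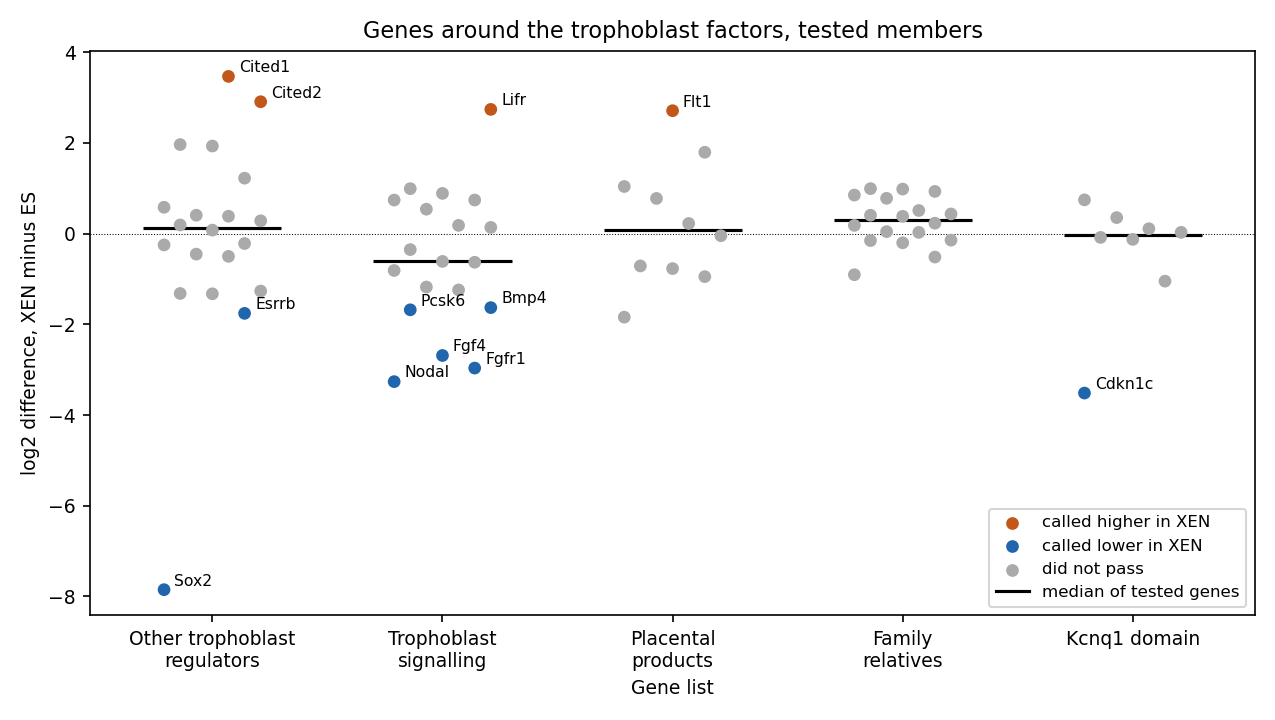
Log2 difference of XEN minus ES for the tested genes of the 5 lists around the trophoblast factors, 1 point per gene, with called genes in colour and named and the list's median as a bar. Across the lists 4 genes were called higher and 8 lower of 74 tested, beside 5.58% and 5.04% of all tested probe sets. The family relatives hold none. Sox2, Esrrb, Fgfr1, Nodal and Cdkn1c were tested through their ES value alone and could only be found lower. Flt1 was tested through XEN alone and could only be found higher.

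Several members are also used by other cells, and markers of these were read beside them. Of the primordial germ cell genes, in which Tfap2c acts, Dppa3 was called lower in XEN, with 2.2, 4.4 and 8.9 units against 380.0 in ES, and Kit, which encodes a receptor tyrosine kinase, higher, with 1404.4, 1121.1 and 870.5 units against 243.1. Kit did not pass without IM8A1-I or IM8A1-II (adjusted p of 0.0521 and 0.0524). All 5 genes of that list were at or above the limit in ES and 2 in each XEN array, and without adjustment (p under 0.05) 3 were lower and 1 higher. The 5 summed to 948 to 1460 units in XEN and 760 in ES, and the 4 other than Kit to 55.4 to 80.3 units in XEN and 517 in ES. Of 7 tested genes of early mesoderm and the germ layers, where Eomes and Hand1 act, 0 were called (limma; without adjustment, p under 0.05, 1 was lower and 0 higher). Their summed signals were 176 to 246 units in XEN and 228 in ES. Of 8 tested fibroblast genes 1, Thy1, was called lower, a call lost without IM8A1-I or IM8A1-II (adjusted p of 0.112 and 0.105). The 12 fibroblast genes on the array summed to 613 to 857 units in XEN and 1089 in ES. Beside the calls of these lists, 5.04% of all tested probe sets were called lower and 5.58% higher. Dppa3 and Thy1 were tested through their ES value alone. The part of such cells in the members' values was not tested.

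For each tested member the probe sets of other genes with the closest profile were found among 7717, by the root mean square distance of log2 values over the 4 arrays, each profile centred on its own mean. For Tfap2c these were Pfkp, Col18a1 and Cpt1a, at distances of 0.13, 0.18 and 0.20, all bright in ES and under the limit in XEN. For Ets2 they were Pls3, F2rl3 and Snw1 (0.06, 0.08 and 0.09), each highest in IM8A1-II. The closest to Hand1 were Hdhd5, Plekha1 and Ip6k1, to Ascl2 H1f1, Msx3 and Slc10a6, and to Eomes Cdc5l, Abhd11os and Unc13b, at distances from 0.02 to 0.08. The distances rest on 4 arrays and describe likeness of profile only.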

How the data were processed

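Total RNA of 4 cultures was measured on 4 Affymetrix MG_U74Av2 arrays, per the file headers. The deposited values are linear intensity summaries, 1 for each of 12488 probe sets and array. The summarising step is not given in these sources. The deposited 2% trimmed means lie within 150.088 to 150.095, so the arrays had been scaled by the authors. The array number limits the precision. Run records gave chip lots and fluidics messages, per the file headers.

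Each array was brought to a common trimmed mean, 10.5 units (the 25th percentile) were added and log2 was taken, which understates changes of dim genes. A probe set was tested if 1 array reached the 40th percentile (8587 of them). The test of XEN against ES was that of limma 3.58.1, run in R 4.3.3 (lmFit, eBayes with a variance trend, 2 residual and 3.76 prior degrees of freedom), two-sided, with Benjamini-Hochberg adjustment over all tested probe sets. The procedure was tested on simulated data. Where a group lay under the limit, the fold is a bound against the limit. Symbols came from the supplied platform annotation: 10833 probe sets had 1 symbol and 396 several, and 10817 of the single-symbol ones were found in RefSeq (GRCm38.p6). In the lists a gene was represented by its brightest probe set (mean log2), and up to 4 called genes each way were named. Members and lists were chosen with earlier results of these data known. Figures used matplotlib 3.10.9.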

Additional observations from a re-analysis of the deposited data

How the results depend on the processing

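Results were recomputed under 12 alternatives: median scaling, quantile normalisation, offsets at the 5th and 50th percentile, dim values set to the background limit, no filter, a filter at the 60th percentile, no variance trend, each XEN line counted once, and leaving out each XEN culture. Member probe sets called lower numbered 1 in the main test, 2 with the larger offset and without a variance trend (Tfap2c and Eomes), and 3 with dim values set to the limit (Tfap2c, Eomes and Ascl2) and without a filter (Tfap2c and both Eomes probe sets). Without a filter Cdx2 differed by -0.07, the second Hand1 probe set by -0.99 and the second Eomes probe set by -1.28. The filter at the 60th percentile left Tfap2c and Ets2 as the members tested. No named gene changed direction with a call on either side.

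Over all tested probe sets 479 were called higher and 433 lower. Leaving out 1 XEN culture gave 190 to 797 higher and 179 to 725 lower, with the lowest counts without IM8A1-I and the highest without XEN1-3, and 241 were higher with dim values set to the limit. The split was 428 higher and 508 lower with median scaling. Of 74 genes tested in the 5 lists around the members, 4 were called higher and 8 lower, beside 5.58% and 5.04% of all tested probe sets. Higher calls numbered 2 with dim values set to the limit and 3 to 7 when 1 culture was left out. Lower calls numbered 5 with each line counted once and 5 to 8 when 1 culture was left out. No paired analysis was possible because ES had 1 array. Signal over background limits Cdx2, Eomes, Ascl2 and the second Hand1 probe set.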
